A study of Mus musculus with 7 samples.

Results

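Potassium channel genes were taken as the genes whose symbol starts with *Kcn*. The array annotation assigns 1 gene each to probe sets of 84 such genes, and 60 of the 84 reached an intensity of 50 on at least 1 of 7 arrays, among 12315 genes that did so. These 60 genes were read by 104 probe sets of 22748 tested, and where several probe sets read a gene, the one with the highest mean intensity over the arrays stands for it. The rule uses no difference between the groups, but *Kcne4*, *Kcnk7* and *Kcnk13* reached 50 on blank arrays alone, so a lower luciferase level was built into their inclusion.

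Potassium channels let potassium ions pass across the cell membrane. They set the resting potential of neurons, end the action potential and limit how fast a neuron fires, and in astrocytes they take up potassium released by active neurons. Voltage-gated channels open on depolarization, calcium- or sodium-activated channels on a rise of these ions inside the cell, inward rectifiers conduct best near rest, and two-pore channels carry leak currents, while accessory and silent subunits alter the channels that they join.

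RNA of primary cortical neurons from C57/Bl6J mouse embryos of day 16 was measured on Affymetrix expression arrays, after 16 days in vitro. In the luciferase group (4 samples) the neurons received lentivirus that carried a short hairpin (shRNA) directed at luciferase, a gene that mice lack, and the labels give a treatment of 2 weeks. In the blank group (3 samples) the neurons were naïve, that is, they received no virus. The description of these samples still names the hairpin treatment of 2 weeks, and their group was taken from the sample titles. The comparison thus asks how bulk RNA of cultures given a control hairpin with its virus differs from that of cultures without them. The luciferase group was the common control for hairpins against other genes, which were not analysed here. The cultures were randomized over plates, and the authors left out 1 untransduced sample for RNA quality. Nothing ties a sample to its own litter or culture day, so the p-values cover the variation among these cultures alone, which may be technical.

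Potassium channel genes that differed between the groups went both ways. Of the 60 genes, 14 passed the adjusted p of 0.05 from limma (23.3%), 7 higher and 7 lower. Over all 12315 genes 25.4% passed, 16.9% higher and 8.55% lower, so the share of potassium channel genes that passed was near that of all genes. Under quantile normalization 5 were higher and 10 lower, and under median centring of each array 4 were higher and 13 lower. The share of higher genes among those that passed was thus 50% as deposited, 33.3% and 23.5%. Over all tested probe sets that share fell too, from 66.2% to 51.7% and 37.3%. At least 1.5-fold differences that also passed were found for 1 of the 60 genes, *Kcnk2*, which was lower, against 4.08% of all genes in either direction and 1.47% lower. The 4 luciferase arrays lay above the 3 blank arrays in 8 genes and below them in 10 (24.6% and 13% of all genes), and overlapped them in 42. The log2 difference, luciferase minus blank, was above 0 in 27 of the 60 genes. Its median was -0.03 over the 60 genes and 0.06 over all genes, and the median of its size was 0.18 and 0.17. In bulk RNA, fewer cells of a type and less RNA per cell cannot be told apart.

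**Figure D1:**
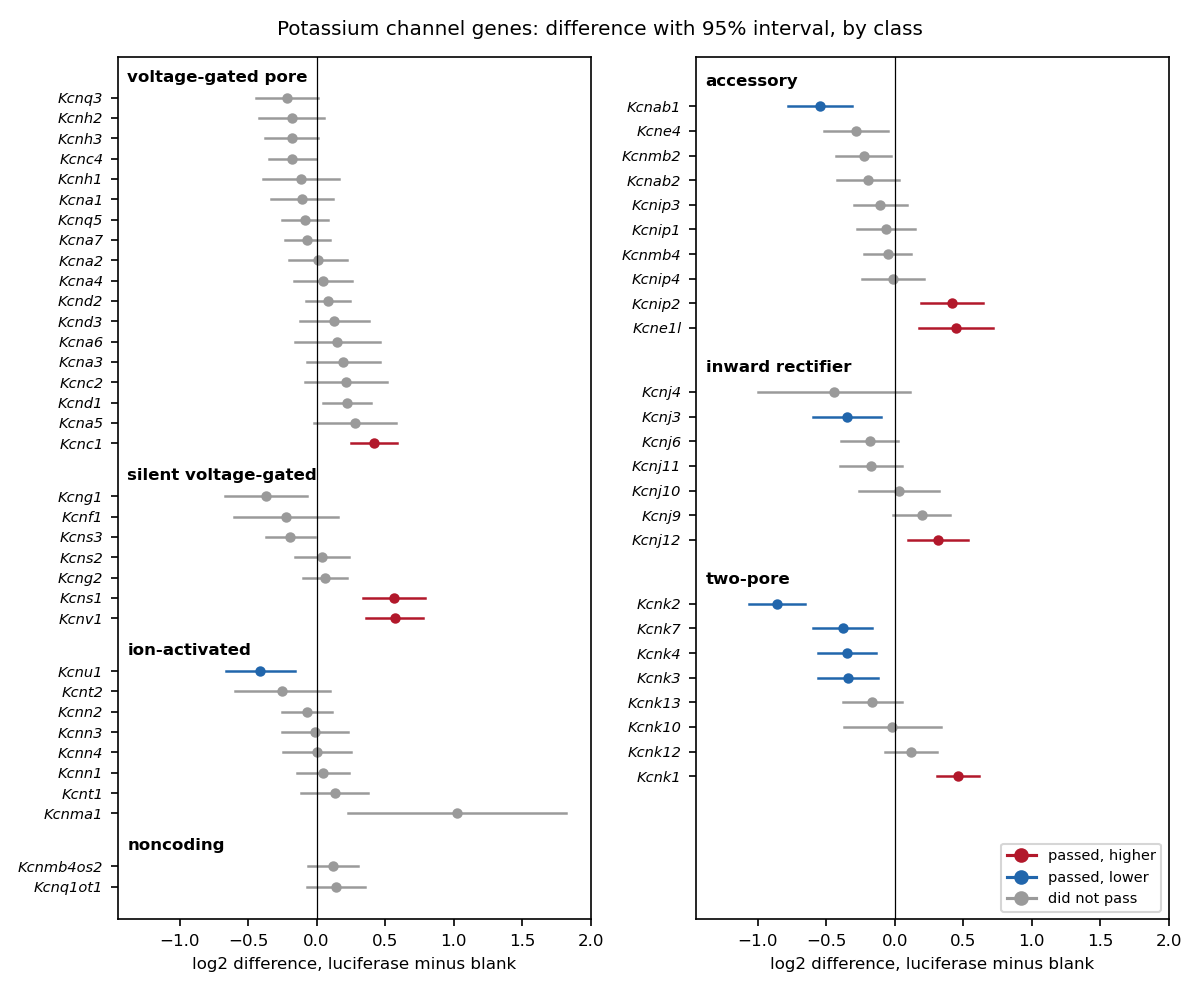
Log2 difference in level, luciferase minus blank (horizontal axis), with its 95% interval for each of the 60 measured potassium channel genes, grouped by class; red and blue mark the genes that passed the adjusted p of 0.05 from limma, grey those that did not. The 7 genes in red and the 7 in blue are spread over the classes, with 5 of the 14 among the two-pore channels.

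Among two-pore channels, 5 of 8 genes passed, 1 higher and 4 lower, beside 16.9% higher and 8.55% lower over all genes. *Kcnk7* and *Kcnk13* are among these 8 through the blank arrays alone, and where 50 had to be reached on 3 arrays, 1 was higher and 3 lower of 6. *Kcnk2* encodes TREK-1, a leak channel opened by membrane stretch and by lipids. It read 299, 306, 273 and 286 on luciferase arrays against 497, 489.6 and 601 on blank arrays. No luciferase array came near the blank range. The mean was 291 ± 14.5 (SD, n = 4) against 529 ± 62.5 (SD, n = 3), which is 55.0% of blank and a log2 difference of -0.86 (standard error 0.091, adjusted p = 5.98e-04 from limma). *Kcnk1*, which encodes the weakly conducting leak channel TWIK-1, went the other way. It read 1309, 1363, 1379.6 and 1390.0 on luciferase arrays against 1008, 1010.4 and 944 on blank arrays. Again the groups stood apart, with a spread within each that was small beside the gap. The log2 difference was 0.46 (standard error 0.068, adjusted p = 0.0024 from limma), and the other *Kcnk1* probe set gave 0.48 (adjusted p = 0.0036 from limma).

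The other two-pore genes that fell did so by less. *Kcnk3* encodes the acid-sensitive channel TASK-1 and read 132, 126, 134 and 138 in luciferase against 161, 149 and 196 in blank neurons. *Kcnk4*, which encodes the stretch-sensitive TRAAK, read 85.8, 97.5, 92.9 and 103 against 116, 111 and 135. In both, the highest luciferase array lay below the lowest blank array, and the blank array with the highest value was replicate 7. The log2 difference was -0.34 for *Kcnk3* (adjusted p = 0.033 from limma) and -0.34 for *Kcnk4* (adjusted p = 0.028 from limma). A further probe set of *Kcnk3* showed no such gap, at 0.03 (adjusted p = 0.88 from limma). *Kcnk7*, a member that is not known to conduct alone, read 39.99, 45.4, 41.3 and 34.5 against 49.99, 52.5 and 54.1, close to the floor of 50, with a log2 difference of -0.38 (adjusted p = 0.022 from limma). *Kcnk10* (TREK-2), *Kcnk12* (THIK-2) and *Kcnk13* (THIK-1) did not pass, with log2 differences from -0.16 to 0.12. Without luciferase replicate 1, 2 or 3, or without blank replicate 5, 3 of the 8 genes passed in place of 5. These were *Kcnk1*, *Kcnk2* and *Kcnk7*, and *Kcnk7* was included through the blank arrays alone.

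For the genes that passed under every alternative setting tried and had an entry in the RefSeq promoter table (GRCm38.p6), the 250 bases before the listed start are shown, so that the region read by the transcription machinery can be seen beside the difference in level. Capitals mark the GC box, GGGCGG on either strand, a motif bound by Sp-family factors. The first pair is that of *Kcnk1* (chr8:125994852-125995101, plus strand) and *Kcnk2* (chr1:189402274-189402523, minus strand, the farthest upstream of 4 listed starts), and neither window holds the motif.
Kcnk1: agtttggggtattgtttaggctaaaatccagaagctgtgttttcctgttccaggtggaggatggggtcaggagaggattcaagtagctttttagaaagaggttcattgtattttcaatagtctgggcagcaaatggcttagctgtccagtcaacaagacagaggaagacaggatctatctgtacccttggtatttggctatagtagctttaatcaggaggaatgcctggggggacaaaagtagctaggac
Kcnk2: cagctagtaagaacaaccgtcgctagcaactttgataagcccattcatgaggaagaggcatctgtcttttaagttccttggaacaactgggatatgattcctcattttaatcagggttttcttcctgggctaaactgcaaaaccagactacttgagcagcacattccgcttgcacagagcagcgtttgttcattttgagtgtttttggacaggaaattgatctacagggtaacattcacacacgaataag

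The pore-forming voltage-gated subunits of the families Kv1 (*Kcna*), Kv3 (*Kcnc*), Kv4 (*Kcnd*), Kv7 (*Kcnq*) and EAG, ERG and ELK (*Kcnh*) rarely passed, though more did so under some other settings. Of 18 genes 1 passed on its standing probe set (5.56%, beside 25.4% of all genes). This was *Kcnc1*, which encodes the fast channel Kv3.1 of rapidly firing neurons. It read 313, 302, 302 and 347 on luciferase arrays against 239, 237 and 233 on blank arrays. The blank arrays were almost alike and all lay below the luciferase arrays. Luciferase neurons had 133.7% of the blank level, a log2 difference of 0.42 (standard error 0.075, adjusted p = 0.0056 from limma). The 4 probe sets of *Kcnc1* did not move together. A second probe set was higher too, at 0.48 (adjusted p = 0.027 from limma), the third showed 0.03 (adjusted p = 0.83 from limma), and the fourth was lower, at -0.37 (adjusted p = 0.012 from limma). The fourth read 63.8, 67.5, 65.5 and 61.0 in luciferase against 86.3, 89.1 and 75.7 in blank neurons, without overlap. *Kcnc1* was the 1 gene with probe sets that passed in both directions, and its call is uncertain for that reason.

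The remaining 17 voltage-gated pore genes had log2 differences from -0.22 to 0.28 and adjusted p from 0.065 to 0.94 from limma. They were 7 *Kcna* genes (*Kcna1* to *Kcna7*), *Kcnc2*, *Kcnc4*, 3 *Kcnd* genes, *Kcnh1*, *Kcnh2*, *Kcnh3*, *Kcnq3* and *Kcnq5*. *Kcna1* and *Kcna2*, which encode the Kv1 channels of axons, had log2 differences of -0.11 and 0.01, with 95% intervals from -0.33 to 0.12 and from -0.20 to 0.22. In *Kcnq3* and *Kcnh3*, which encode subunits of the M-current channel and of an ELK channel, another probe set passed where the standing one did not. For *Kcnh3* the standing probe set gave -0.18 (adjusted p = 0.16 from limma). The other read 194, 196, 212 and 196 in luciferase against 263, 261 and 270.4 in blank neurons, with a wide gap between the groups and a log2 difference of -0.41 (adjusted p = 0.0042 from limma). For *Kcnq3* the values were -0.22 (adjusted p = 0.14 from limma) and -0.43 (adjusted p = 0.031 from limma), in the same direction. With the mean of all probe sets of a gene, *Kcnd2*, *Kcnd3*, *Kcnh3* and *Kcnq3* passed, beside 29.1% of all genes. Without blank replicate 7, *Kcna5*, *Kcna6*, *Kcnc2*, *Kcnd3*, *Kcnh3* and *Kcnq3* passed, beside 32.6% of all genes. Array weights added *Kcnd1* to these 6, beside 43.6% of all genes.

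Silent subunits of the families Kv5, Kv6, Kv8 and Kv9 form no channel alone but join other voltage-gated subunits and change their gating. Of 7 such genes 2 passed (28.6%), both higher, near the 25.4% of all genes that passed. *Kcnv1* (Kv8.1) read 414, 424, 417 and 512 on luciferase arrays against 303, 309 and 279 on blank arrays, and the groups did not overlap. Its log2 difference was 0.57 (standard error 0.093, adjusted p = 0.0038 from limma). The other 2 probe sets of *Kcnv1* were higher as well, at 0.30 (adjusted p = 0.046 from limma) and 0.34 (adjusted p = 0.024 from limma). *Kcns1* (Kv9.1) read 152, 139.9, 136 and 169 against 111, 102 and 90.9. Every luciferase array lay above every blank array, by a log2 difference of 0.56 (standard error 0.101, adjusted p = 0.0055 from limma). The window before the start of *Kcns1* (chr2:164171114-164171363, minus strand) holds 1 GC box.
Kcns1: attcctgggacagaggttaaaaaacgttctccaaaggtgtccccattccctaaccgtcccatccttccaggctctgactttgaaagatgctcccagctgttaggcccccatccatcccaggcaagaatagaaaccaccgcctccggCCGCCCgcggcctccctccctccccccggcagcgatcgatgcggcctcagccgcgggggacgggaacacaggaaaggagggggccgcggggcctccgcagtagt

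The silent subunits *Kcnf1*, *Kcng1*, *Kcng2*, *Kcns2* and *Kcns3* did not pass, at log2 differences from -0.37 to 0.06. The lowest of these values was that of *Kcng1* (adjusted p = 0.071 from limma), which passed under quantile normalization and under median centring.

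Among 10 accessory subunit genes 3 passed (30%), 2 higher and 1 lower, near the 25.4% of all genes that passed. *Kcnab1* encodes the Kv beta 1 subunit, which gives Kv1 channels fast inactivation. It read 519, 586, 548 and 504 on luciferase arrays against 748, 705 and 925 on blank arrays. The groups stood apart, though blank replicate 7 lay well above the other blank arrays. Luciferase neurons had 68.1% of the blank level, a log2 difference of -0.55 (standard error 0.104, adjusted p = 0.0069 from limma). The second *Kcnab1* probe set, at 172, 169, 161 and 161 against 212, 202 and 191, had no such array and gave -0.28 (adjusted p = 0.021 from limma). The window before the farthest upstream of 3 listed starts of *Kcnab1* (chr3:64948962-64949211, plus strand) holds 2 GC boxes, 1 on each strand.
Kcnab1: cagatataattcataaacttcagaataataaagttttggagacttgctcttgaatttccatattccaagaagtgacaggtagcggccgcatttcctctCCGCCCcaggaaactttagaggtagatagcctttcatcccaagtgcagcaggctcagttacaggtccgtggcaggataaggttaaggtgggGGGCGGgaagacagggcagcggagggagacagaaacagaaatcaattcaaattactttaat

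*Kcne1l*, which encodes a MinK-related subunit that damps Kv7 currents, read 77.0, 65.7, 64.8 and 80.8 in luciferase against 45.3, 52.2 and 61.6 in blank neurons. The gap between the groups was narrow beside their spread, with a log2 difference of 0.45 (standard error 0.122, adjusted p = 0.028 from limma). *Kcnip2* encodes KChIP2, a calcium-binding subunit that brings Kv4 channels to the membrane. Its standing probe set read 461, 384, 435 and 385 against 306, 349 and 279, a log2 difference of 0.42 (adjusted p = 0.018 from limma). A second *Kcnip2* probe set read 177, 143, 128 and 142 against 94.1, 112 and 81.4, and it passed at 1.54-fold, with a log2 difference of 0.62 (adjusted p = 0.011 from limma). In both of these the luciferase arrays lay above the blank arrays. The third went the other way, at -0.39 (adjusted p = 0.082 from limma), and it read above 50 on 1 luciferase array. *Kcnab2*, *Kcne4*, *Kcnip1*, *Kcnip3*, *Kcnip4*, *Kcnmb2* and *Kcnmb4* did not pass, with log2 differences from -0.28 to -0.01.

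**Figure D2:**
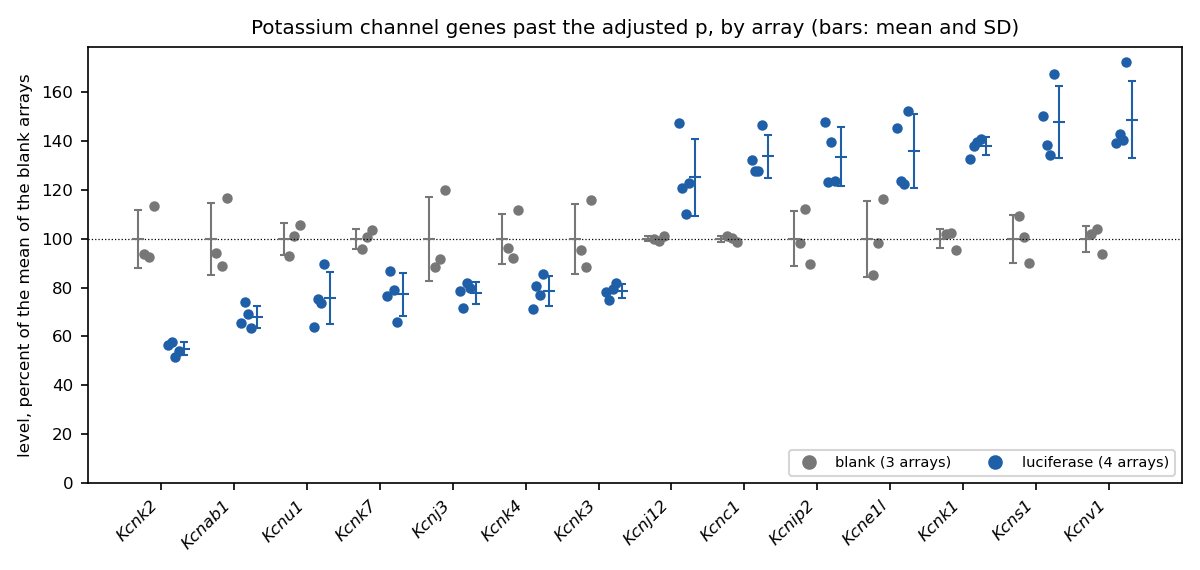
Array levels scaled so that the blank mean is 100% (vertical axis) for the 14 potassium channel genes that passed, blank in grey and luciferase in blue; each point is 1 array, with bars for mean ± SD at its side. *Kcnk2* lies lowest, at 55.0% of blank, and *Kcnv1* highest, at 148.8%, and in none of the 14 do the groups overlap.

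The Kv4 channel complex holds *Kcnd* pore subunits, KChIP subunits and dipeptidyl peptidase-like subunits, and carries the A-type current of dendrites. Its pore genes did not pass on their standing probe sets: the log2 difference was 0.22 for *Kcnd1* (adjusted p = 0.065 from limma), whose luciferase arrays all lay above the blank arrays, 0.08 for *Kcnd2* (adjusted p = 0.42 from limma) and 0.13 for *Kcnd3* (adjusted p = 0.43 from limma). For *Kcnd2* the standing probe set read 1089, 1012, 1094 and 1063 in luciferase and 1019, 949.8 and 1046 in blank neurons, which overlap. Its other probe sets passed, at 0.34 (adjusted p = 0.048 from limma) and 0.50 (adjusted p = 0.035 from limma), and so did another probe set of *Kcnd3*, at 0.28 (adjusted p = 0.035 from limma). With the mean of all probe sets of a gene, *Kcnd2* and *Kcnd3* passed, at 0.31 (adjusted p = 0.038 from limma) and 0.21 (adjusted p = 0.049 from limma), and *Kcnip2* did not, at 0.22 (adjusted p = 0.12 from limma). *Kcnip1*, *Kcnip3* and *Kcnip4* lay between -0.11 and -0.01.

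The dipeptidyl peptidase-like subunits of this complex, *Dpp6* and *Dpp10*, were both higher in luciferase neurons. *Dpp10* read 1689, 1676, 1665 and 1606 against 1217, 1141 and 1166, a log2 difference of 0.50 (adjusted p = 0.0016 from limma). *Dpp6* read 1058, 1181, 1121 and 1144 against 887, 863 and 794, a log2 difference of 0.41 (adjusted p = 0.0062 from limma). Both genes kept their groups apart with a narrow spread, and passed under every alternative setting tried. They belong to a list of 18 partners of potassium channels, of which 13 were measured and 4 passed, all higher (30.8%), beside 25.4% of all genes in either direction and 16.9% higher. The others were *Abcc8*, the sulfonylurea receptor that joins the inward rectifier *Kcnj11*, at 0.30 (adjusted p = 0.039 from limma), and *Nedd4l*, a ubiquitin ligase that acts on membrane channels, at 0.38 (adjusted p = 0.026 from limma). *Kcnj11* itself had -0.17 (adjusted p = 0.24 from limma). Without luciferase replicate 1, 3 or 4, or blank replicate 5 or 6, 2 of the partners passed.

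**Figure D3:**
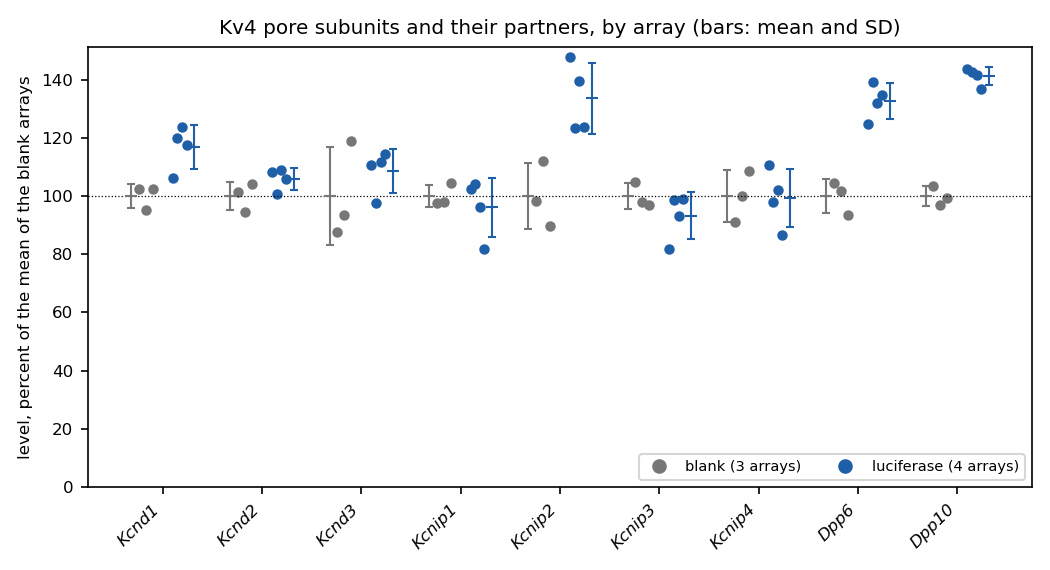
Array levels scaled so that the blank mean is 100% (vertical axis) for Kv4 pore subunits, KChIP subunits and dipeptidyl peptidase-like subunits, blank in grey and luciferase in blue; each point is 1 array, with bars for mean ± SD at its side. *Kcnip2* (133.6%), *Dpp6* (132.7%) and *Dpp10* (141.2%) lie above the blank arrays, as does *Kcnd1* (116.9%), while *Kcnd2* (106.0%) and *Kcnd3* (108.6%) overlap them.

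Of 7 inward rectifier genes 1 was higher and 1 lower (28.6%), near the 25.4% of all genes that passed. *Kcnj3* encodes GIRK1, a subunit of the channel that G proteins open downstream of inhibitory receptors. It read 374, 341, 389 and 381 on luciferase arrays against 422, 436 and 571 on blank arrays, without overlap, though blank replicate 7 lay far above the others. The log2 difference was -0.35 (standard error 0.111, adjusted p = 0.047 from limma), and the other probe sets of *Kcnj3* gave -0.38 (adjusted p = 0.089 from limma) and -0.19 (adjusted p = 0.18 from limma). *Kcnj12*, which encodes the strong rectifier Kir2.2, read 112, 92.0, 83.9 and 93.5 against 76.1, 75.5 and 77.0. The luciferase arrays spread more than the gap to the blank arrays, and the log2 difference was 0.32 (standard error 0.099, adjusted p = 0.044 from limma).

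The other inward rectifiers did not pass. *Kcnj9*, the GIRK3 subunit, had 0.20 on its standing probe set (adjusted p = 0.15 from limma). Its other probe set read 140.5, 133, 108 and 133 in luciferase against 73.1, 96.0 and 84.9 in blank neurons, and passed at 1.52-fold, with a log2 difference of 0.61 (adjusted p = 0.0074 from limma). The GIRK2 subunit *Kcnj6* had -0.18 (adjusted p = 0.17 from limma). *Kcnj4*, the rectifier Kir2.3, had the widest spread in this class, with 255, 160.2, 164 and 195 against 177, 251 and 389.9, and its log2 difference of -0.44 had a standard error of 0.248 (adjusted p = 0.21 from limma). *Kcnj10*, the Kir4.1 channel with which astrocytes clear potassium, read 178, 129.6, 147 and 157 against 131, 141 and 178, a log2 difference of 0.03 (95% interval from -0.26 to 0.32).

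Of 8 channels opened by calcium, sodium or internal pH, 1 passed (12.5%, beside 25.4% of all genes). *Kcnu1* encodes Slo3, a channel best known from sperm. Its probe set read 97.1, 115, 112 and 137 on luciferase arrays against 142, 154 and 161 on blank arrays, which did not overlap, and the log2 difference was -0.41 (standard error 0.112, adjusted p = 0.028 from limma). The calcium-activated SK and IK genes *Kcnn1* to *Kcnn4*, which shape the pause after a spike, had log2 differences from -0.07 to 0.05. *Kcnt1* and *Kcnt2*, the sodium-activated channels Slack and Slick, had 0.13 and -0.25. The long noncoding RNAs *Kcnq1ot1* and *Kcnmb4os2* carry the *Kcn* prefix but encode no channel, and did not pass either (0.14 and 0.12).

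*Kcnma1*, which encodes the BK channel opened by calcium and voltage together, was chosen for description after its values were seen. Its standing probe set read 180.2, 503, 449.8 and 643 on luciferase arrays against 217, 207 and 171 on blank arrays. Luciferase replicates 2, 3 and 4 lay above the blank arrays and replicate 1 within their range. The log2 difference was 1.03 with a 95% interval from 0.23 to 1.82, and it did not pass (adjusted p = 0.061 from limma). Without luciferase replicate 1 it was 1.41 (adjusted p = 0.0012 from limma), and with array weights 0.90 (adjusted p = 0.038 from limma). The gene passed under no other setting tried. The other probe sets of *Kcnma1* overlapped between the groups, at -0.14 (adjusted p = 0.42 from limma) and -0.11 (adjusted p = 0.67 from limma), and the mean of all 3 gave 0.26. The BK accessory subunits *Kcnmb2* and *Kcnmb4* had -0.23 (adjusted p = 0.092 from limma) and -0.05 (adjusted p = 0.65 from limma).

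**Figure D4:**
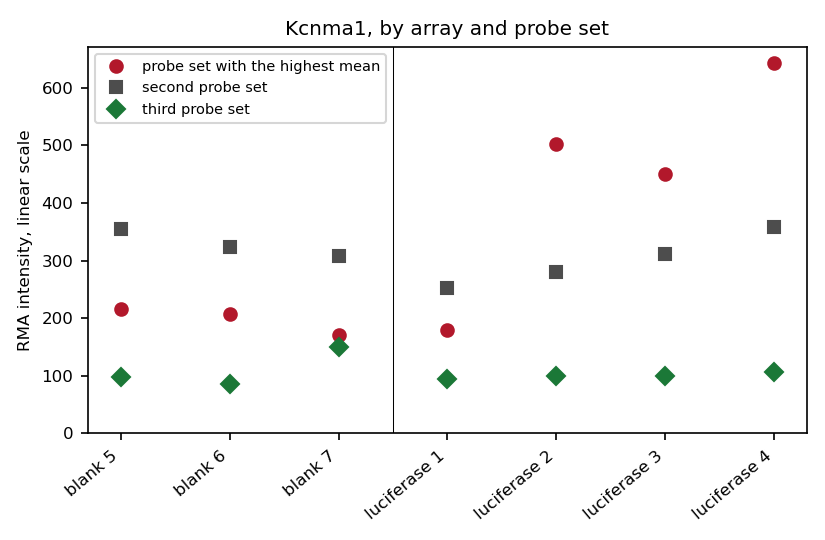
RMA intensity on a linear scale (vertical axis) of the 3 tested *Kcnma1* probe sets on each of the 7 arrays; each point is 1 probe set on 1 array. The probe set with the highest mean reads from 171 to 217 on the blank arrays and luciferase replicate 1, and from 449.8 to 643 on the other luciferase arrays, while the other probe sets show no such split.

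How far a gene's probe sets moved alike limits each of these calls, since probe sets can read different ends or splice forms of a transcript, and levels of different probe sets share no common scale. Of the 60 genes 32 had several tested probe sets, and in 19 of these all had the same sign. Of the 14 genes that passed, 7 had several, with all of the same sign in 4 (*Kcnab1*, *Kcnj3*, *Kcnk1* and *Kcnv1*), and the other 7 had 1 probe set each. Over 44 potassium channel probe sets that do not stand for a gene, 13 passed, 9 higher and 4 lower, beside 24.5% of all tested probe sets (16.2% higher and 8.26% lower). In 5 genes (*Kcnd2*, *Kcnd3*, *Kcnh3*, *Kcnj9* and *Kcnq3*) such a probe set passed and the standing one did not.

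**Figure D5:**
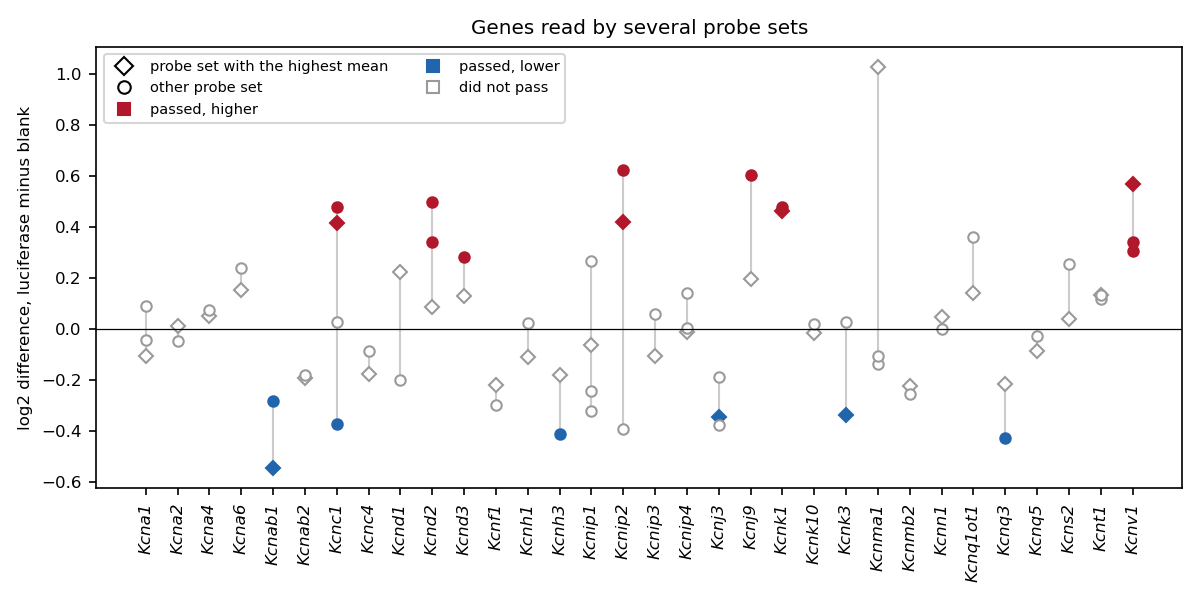
Log2 difference, luciferase minus blank (vertical axis), of every tested probe set of the 32 potassium channel genes that had several; diamonds are the probe sets with the highest mean, circles the others, and filled symbols passed the adjusted p of 0.05 from limma. *Kcnc1* has filled symbols on both sides of 0, and *Kcnma1* has its diamond at 1.03 and its circles below 0.

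The calls differed in how firmly they stood. *Kcnab1*, *Kcnk1*, *Kcnk2*, *Kcns1* and *Kcnv1* passed under each of 16 alternative settings, with adjusted p of at most 0.021 from limma. *Kcnk2* and *Kcns1* were read by 1 tested probe set each, so the mean of a gene's probe sets could not change their difference. *Kcnc1* lost its call under 1 setting, the mean of its probe sets (0.14, adjusted p = 0.17 from limma), and *Kcnk7* under 1 of the 14 in which it was measured, without blank replicate 6 (adjusted p = 0.063 from limma). *Kcnk7* reached 50 on blank arrays alone, so a lower luciferase level was built into its inclusion, and the stricter filters left it out. *Kcnip2* lost it under 4, *Kcne1l* under 5 of 15, *Kcnk4* and *Kcnu1* under 5 each, *Kcnj3* and *Kcnk3* under 7 each and *Kcnj12* under 10. No gene that passed changed direction under a setting in which it was measured. Blank replicate 7 was the highest blank array in 39 of the 60 genes and in 59.7% of all genes. Without it 20 of the 60 genes passed (32.6% of all genes), and without luciferase replicate 1, luciferase replicate 2 or blank replicate 5, 9 passed (17.5%, 17.5% and 14.8% of all genes). With array weights 31 passed, beside 43.6% of all genes.

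Of 18 other genes of potassium and cation transport, 12 were measured, and 3 were higher and 1 lower (33.3%). Over all genes 25.4% passed, 16.9% higher and 8.55% lower. *Hcn3*, a channel of the hyperpolarization-activated current, read 238, 273, 259.6 and 256 in luciferase against 385, 394 and 452 in blank neurons, a log2 difference of -0.68 (adjusted p = 0.0011 from limma). The potassium chloride cotransporter *Slc12a7* had 0.37 (adjusted p = 0.015 from limma), and the sodium pump subunits *Atp1b2* and *Fxyd6* had 0.26 (adjusted p = 0.043 from limma) and 0.27 (adjusted p = 0.022 from limma).

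Markers of the cell types in the cultures were read beside the channels, and their part in the channel results was not tested. Over all genes 16.9% were higher and 8.55% lower. All 14 markers of neurons, the labelled cells, were measured. Of these 2 were higher (*Slc17a7* at 0.39 and *Camk2a* at 0.31) and 2 lower, both at 1.5-fold or more (*Nefl* at -0.80 and *Nefm* at -0.66). The summed intensity of the 14 was 55151 to 57574 in luciferase and 54259 to 59049 in blank neurons. Of 13 astrocyte markers 11 were measured, all with a log2 difference above 0, and 6 were higher. Of these 3 were so at 1.5-fold or more (*Gfap* at 1.19, *Aqp4* at 0.82 and *Aldh1l1* at 0.86). The summed intensity of the 11 was 31390 to 34109 against 24099 to 26595, without overlap. Of 12 vascular and meningeal markers 6 were measured, 1 higher (*Pdgfrb* at 0.70) and 3 lower (*Dcn*, *Flt1* and *Col1a2*). *Col1a2* reached 50 on blank arrays alone, so a lower luciferase level was built into its inclusion. The sums of the 6 were 622 to 804 against 1055 to 1178. Most of these sums came from *Dcn*, which read 347, 413, 385 and 540.2 against 939.6, 804 and 760.4, and without it the sums of the other 5 markers were 256 to 275 against 238 to 295, which overlap. The defining endothelial markers *Cldn5*, *Pecam1* and *Cdh5* did not reach 50. Of 10 microglia markers 2 were measured, neither passed, and *Cx3cr1*, *Aif1* and *P2ry12* did not reach 50. Of 9 measured oligodendrocyte lineage markers 1 was higher (*Mbp* at 0.39) and 1 lower (*Mag* at -0.40). *Mag* lay close to the floor and reached 50 on blank arrays alone, so its inclusion too had a lower luciferase level built in. Of 9 measured progenitor and proliferation markers 3 were higher (*Pax6* at 0.44, *Hes5* at 0.50 and *Vim* at 0.35). All 9 had a log2 difference above 0, and their sums were 8394 to 9631 against 7019 to 7597, without overlap. The median intensity of tested probe sets was 237 to 241 on the luciferase arrays and 216 to 235 on the blank arrays, and that of unfiltered probe sets ran the other way, 48.3 to 49.0 and 49.6 to 51.0.

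Promoter sequence was compared over the genes with an entry in the RefSeq table. A window of 250 bases was found for 47 of the 60 genes and for 11 of the 14 that passed. The GC box stood in 24 of the 47 (51.1%), in 7 of the 11 and in 33.0% of 27025 genes of the table. The median GC content was 60.0% over the 47 windows and 52.0% over the table. The cAMP response element TGACGTCA was in none of the 47 windows and in 1.6% of all, the AP-1 motif TGACTCA in 1 and in 4.43%, the EGR motif GCGTGGGCG in none and in 0.54%, and TATAAA in 1 and in 13.0%. Both strands were searched, the EGR motif ends in letters with which the GC box begins, so both can be counted at the same place, and a match describes letters, not a bound site.

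The 24 genes that did not reach 50 on any array included the inward rectifiers *Kcnj1*, *Kcnj2*, *Kcnj5*, *Kcnj8* and *Kcnj13* to *Kcnj16*, the two-pore genes *Kcnk5*, *Kcnk6*, *Kcnk15* and *Kcnk16*, the accessory genes *Kcnab3*, *Kcne1*, *Kcne2*, *Kcne3* and *Kcnmb1*, and *Kcng4*, *Kcnh5*, *Kcnh7*, *Kcnh8*, *Kcnq1*, *Kcnv2* and the noncoding *Kcnmb4os1*. Just outside the floor were *Kcnj16*, with 49.1 on its highest array, and *Kcnab3* with 46.5, and just inside were *Kcnk7* with 54.1 and *Kcns3* with 57.9. Of the genes outside it a level under 50 is all that these arrays give.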

How the data were processed

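RNA was hybridised by the authors to Affymetrix Mouse 430_2 arrays, 4 luciferase and 3 blank, and normalized by robust multi-array averaging (RMA, with no version stated); the deposited values are intensity on a linear scale. The sources used here do not say whether both groups were normalized together. The blank columns of the deposited table sit 1 row low and were moved up by 1; over 45037 probe sets the log2 group means then had r = 0.995, against 0.421 as deposited. The table held 0 columns of other samples. Of 45101 probe sets, 64 controls and 2441 with names ending _x_at were left out, and 22748 of the remaining 42596 reached 50 on at least 1 array. The floor and the exclusion follow the methods of the study but were applied here to these 7 arrays alone, and the study also asked for a 1.5-fold change. The array annotation gives 1 gene for 34958 probe sets, several for 932 and none for 9211, and 34754 symbols were matched by gene ID to a RefSeq table (0 updated).

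The log2 values of luciferase minus blank were fitted with no covariates in R 4.3.3, using lmFit and eBayes of limma 3.58.1, with Benjamini-Hochberg adjustment over the 22748 probe sets. "Passed" means an adjusted p of at most 0.05. Precision is limited by the number of arrays: the median moderated SD was 0.12 on the log2 scale, and the median coefficient of variation of the 60 genes was 7.74% in luciferase and 10.3% in blank. The script was tested on simulated data. Groups follow the sample titles. The members and gene lists were chosen with earlier results of these data known. Array values are given for the members that passed, and for others where probe sets disagreed or where the text says so; listed genes are named where they passed, up to 4 a list. The alternatives were other filters (none, at least 100 on 1 array, at least 50 on 3 arrays), quantile normalization, centring on the median, eBayes with trend and robust, array weights, the mean of a gene's probe sets, probe sets ending _x_at kept, and leaving out each array in turn. Leaving out a library kept the probe set chosen over all 7 arrays. No genome coordinates are given for probe sets, since the files name no build.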

Additional observations from a re-analysis of the deposited data

Results flagged for a closer look

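With the 4 luciferase arrays tested for a single array far from the others, 2 of the 60 measured potassium channel genes were flagged. Chance flags about 1 in 20 groups, so this count is no more than chance gives. In *Kcnt2*, the sodium-activated channel Slick, luciferase replicate 4 read 215 and the others 304 to 319. The gene did not pass (log2 difference -0.25, adjusted p = 0.26 from limma). In *Kcnv1*, luciferase replicate 4 read 512 and the others 414 to 424, and all of them lay above the blank arrays. *Kcnv1* passed without this array as it did with it. Replicate 4 was the highest luciferase array in 23 of the 60 genes and in 26% of all genes.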

How the results depend on the processing

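No paired analysis was possible because the groups share no replicate number. Of the 60 measured genes 14 passed, 7 higher and 7 lower, and 1 of them at 1.5-fold. With array weights 31 passed (beside 43.6% of all genes), 15 higher and 16 lower, and 2 at 1.5-fold. With each array centred on its median 4 were higher and 13 lower, and 2 reached 1.5-fold, as did 2 with quantile normalization. Over all genes 25.2% and 24% passed under these scalings, and the share of higher among all probe sets that passed was 37.3% and 51.7%, against 66.2% as deposited. Leaving out each array in turn gave 9 to 20 genes that passed, 4 to 11 higher and 3 to 9 lower, 1 to 4 at 1.5-fold, 2 to 3 channel partners (4 with all arrays) and 3 to 5 two-pore genes (5 with all arrays). Other filters and fits gave 11 to 17, and the cause of these shifts was not tested. None of the 14 genes reversed under a setting in which it was measured (14 of 16 for *Kcnk7* and 15 for *Kcne1l*). Fewer arrays leave fewer degrees of freedom, and low probe sets near 50 limit *Kcnk7*, *Kcne1l* and *Kcne4*.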
